A study of Mus musculus with 31 samples.

Results

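The 10 genes described here, Slc7a3, Slc7a5, Slc7a11, Slc3a2, Asns, Atf4, Ddit3, Ddit4, Trib3 and Chac1, carry amino acid transport and the transcriptional response to amino acid shortage in cells. They were chosen by name, as the rows of the deposited array table whose single gene symbol is one of these, and all 10 of 10 were found, each as 1 row, among 19938 genes measured. The cells were mouse embryonic fibroblasts, whose strain and sex are not given in the sources used here, and the study profiled them while they were reprogrammed with retroviral factors. Every infected culture received virus on day 0. The 4F cultures received Oct4, Sox2, Klf4 and c-Myc, and were sampled on days 1, 2, 3, 4, 5, 6 and 8 with 2 arrays a day and on days 10 and 12 with 1 array. The 3F cultures received Oct4, Sox2 and Klf4 without c-Myc, and were sampled on days 3, 5, 8 and 12 with 1 array a day. The GFP cultures received the control virus, and were sampled on days 1, 3, 5 and 8 with 2 arrays and on day 12 with 1 array. The starting cells, taken on day 0, had received no virus and gave 2 arrays. The source text of the 3F samples speaks of 4 factors while naming 3, and they were read as 3F from their titles and virus labels.

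Amino acid shortage, endoplasmic reticulum stress and other insults activate kinases that phosphorylate the initiation factor eIF2, which lowers protein synthesis in general but raises translation of the transcription factor ATF4. ATF4 in turn activates genes for amino acid uptake, amino acid synthesis and transfer RNA charging, and, when stress lasts, genes that slow growth or favour cell death. Much of the control of ATF4 is exerted on its translation, which arrays do not read. In cultured fibroblasts these genes are known to respond to the supply of amino acids such as glutamine and cystine in the medium.

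ATF4 binds composite sites whose core can be written TGATGNAA, and the promoter sequences of the members show where these letters lie. Promoters of 8 members were listed in the RefSeq table of build GRCm38.p6 (250 bases before to 50 after a start site). Slc7a3 and Slc7a5 are not among them. TGATGNAA, read on both strands, occurred in the windows of 4 of these 8 genes (Chac1, Trib3, Slc7a11 and Asns), against 3.97% of all 32851 listed promoters. The E-box CACGTG occurred in 0 of the 8 and in 7.15% of all promoters. The antioxidant response core TGACNNNGC occurred in 1 of the 8 (Asns) and in 12.4% of all promoters. The stretches upstream of the start that hold TGATGNAA are shown 5′ to 3′ on the gene's strand, because they show where the core lies in Chac1, Slc7a11 and Asns. The matched bases are in capitals.
Chac1, chr2:119351023-119351082, + strand: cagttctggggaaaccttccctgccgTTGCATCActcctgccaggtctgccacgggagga
Slc7a11, chr3:50443627-50443705, - strand: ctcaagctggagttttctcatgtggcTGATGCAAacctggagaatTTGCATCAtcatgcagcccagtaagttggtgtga
Asns, chr6:7693210-7693258, - strand: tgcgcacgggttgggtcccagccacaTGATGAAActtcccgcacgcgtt
The match of Chac1 began 193 bases before the start site and that of Asns 23 bases before it. Slc7a11 held a pair of matches in opposite orientation, which began 66 and 47 bases before the start. The match of Trib3 lay after its start site. These are matches of letters, and no binding was measured.

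Signals are log2 values per probe set, so that a difference of 1 is a 2-fold change, and levels of different genes are not compared because their probe sets differ. The columns had nearly the same distribution, with medians from 6.04 to 6.17. The labels were checked on the delivered factors: Pou5f1 (Oct4) lay at 6.05 or more in all 20 factor arrays and at 5.65 or less in the 9 GFP and 2 day 0 arrays. Sox2 lay at 5.74 or more in 4F and 5.86 or more in 3F, above GFP (5.57 or less) but overlapping day 0 (5.66 and 5.98). Among the delivered factors, only Pou5f1 set all factor arrays apart from both GFP and day 0. Klf4 was not higher in 4F (6.65 to 7.61) than in GFP (7.67 to 8.15), nor Myc in 4F (6.37 to 8.50) than on day 0 (9.58 and 9.70), and where the probes of either lie relative to the delivered sequence is not known here. Myc was also higher in the 3F arrays (7.95 to 9.37, median 8.65) than in the 4F arrays (median 7.14), although only 4F is labelled as given c-Myc. That 3F lacked the c-Myc virus therefore rests on the labels alone, and 3F and 4F below mean the arrays so labelled. The mean of 12 fibroblast markers was 10.26 and 10.41 on day 0, 10.57 to 11.85 in GFP, 9.23 to 10.34 in 4F and 10.28 to 10.74 in 3F. The mean of 11 pluripotent markers stayed at 5.40 to 5.69 in GFP and reached 8.29 in 4F and 8.42 in 3F, and that of 8 epithelial markers reached 8.60 in 4F against 6.10 in GFP. Macrophage, endothelial, skeletal muscle and adipocyte markers were mostly dim, with 0 to 3 of 8 above the median gene in any arm. Of 8 neural markers 4 or 5 were above it in every arm, and their mean was 6.82 and 6.85 on day 0, 5.86 to 6.80 in GFP, 6.47 to 7.16 in 4F and 6.82 to 7.31 in 3F. The log2 signals give no true 0 by which a marker could be called absent. These marker differences run alongside every 4F and 3F result below, their part in those results was not tested, and in bulk RNA fewer cells of a type and less RNA per cell cannot be told apart. The titles call the 2 arrays of a group biological replicates, without saying whether these were separate cultures, embryos or infections, so the p-values measure the spread between these samples, and the number of arrays limits the precision throughout.

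**Figure D1:**
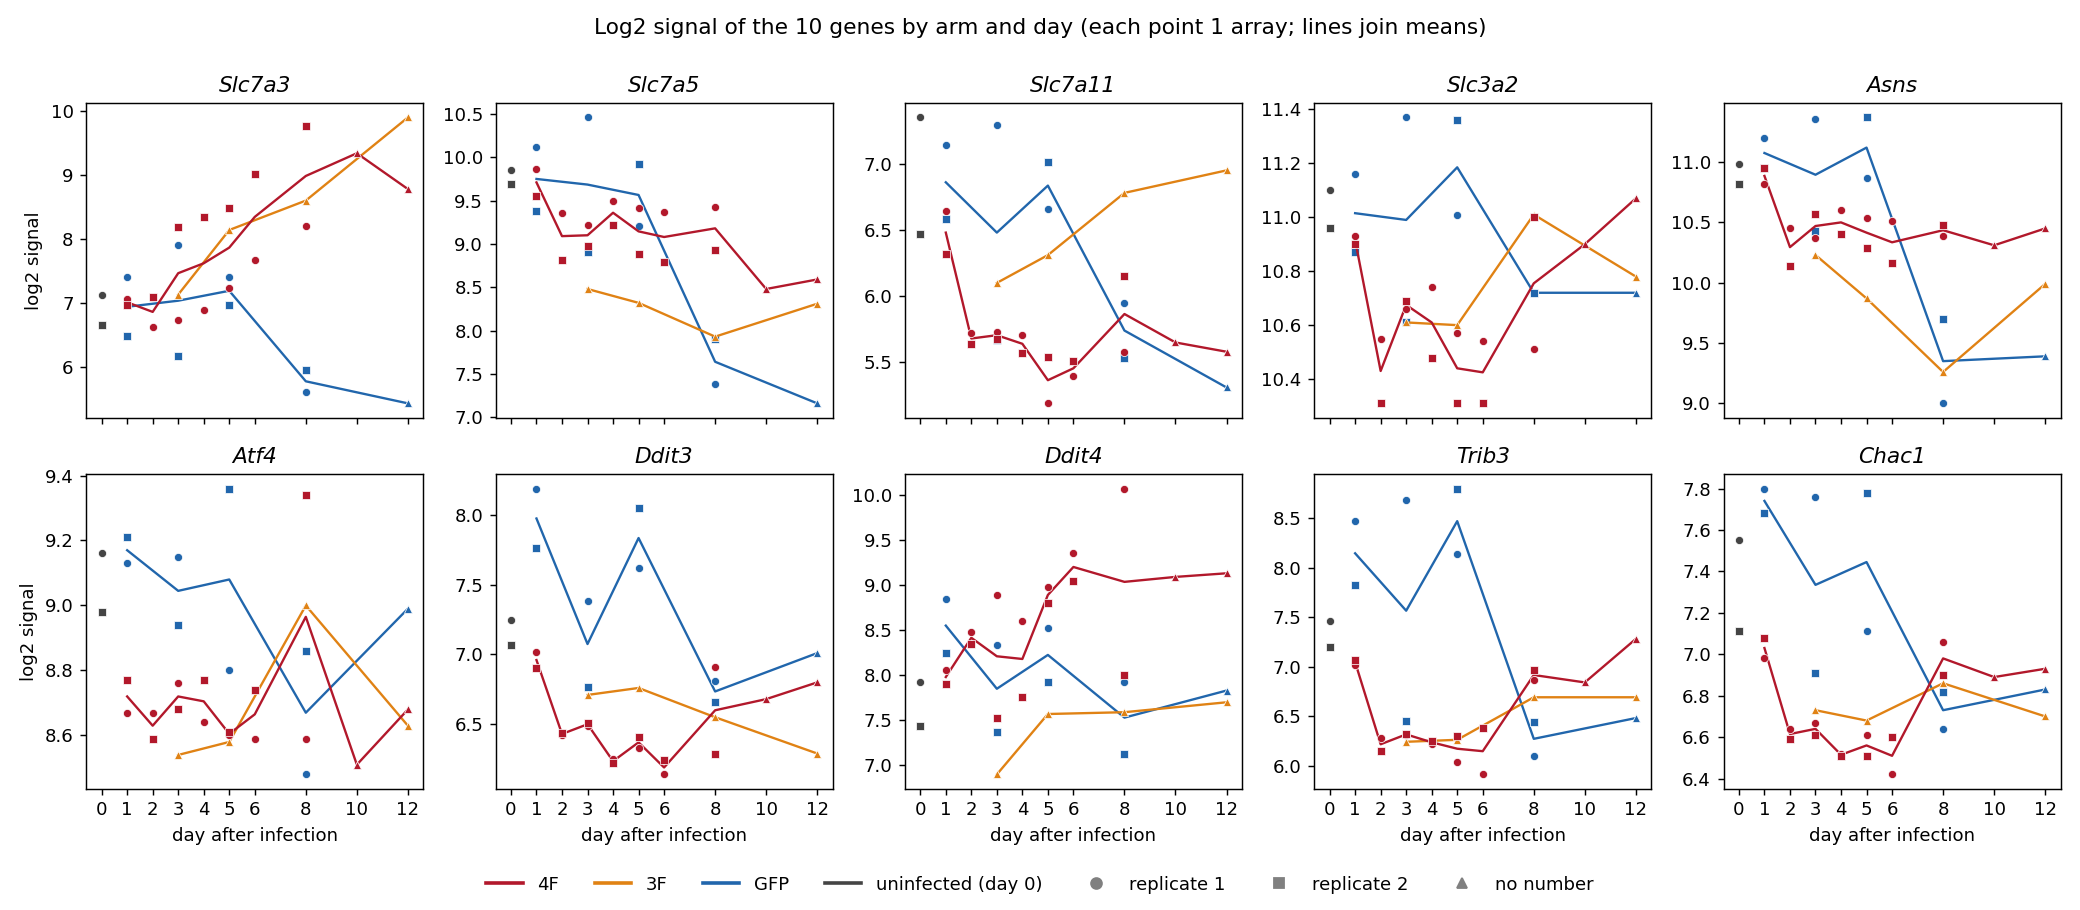
Log2 signal (vertical axis, scale set per gene) against day after infection for the 10 genes. Each point is 1 array, red for 4F, orange for 3F, blue for GFP and grey for uninfected cells, circles mark replicate 1, squares replicate 2 and triangles arrays without a number, and lines join the means of each arm. In 4F on days 2 to 6, Trib3, Ddit3 and Chac1 lie below both day 0 arrays in all 10 arrays, and in GFP on days 1 to 5 they lie above both in 5, 5 and 4 of 6 arrays, while Slc7a3 climbs to 9.76 in 4F and 9.90 in 3F and ends at 5.43 in GFP.

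Atf4 encodes the transcription factor that gives the response its name. On day 0 its signal was 9.16 in replicate 1 and 8.98 in replicate 2. In GFP it was 9.13 and 9.21 on day 1, 9.15 and 8.94 on day 3, 8.80 and 9.36 on day 5, 8.48 and 8.86 on day 8, and 8.99 on the day 12 array. In 4F it was 8.67 and 8.77 on day 1, from 8.59 to 8.77 (median 8.66) in the 10 arrays of days 2 to 6, 8.59 and 9.34 on day 8, 8.51 on day 10 and 8.68 on day 12. Every 4F array but replicate 2 of day 8 lay below both day 0 arrays. The whole range of Atf4 over 31 arrays was 0.88, the smallest of the 10 genes, and no comparison called it: the mean 4F minus GFP difference over days 1, 3, 5 and 8 was -0.24 ± 0.10 (SE, 8 arrays an arm; limma adjusted p = 0.087). That difference passed the threshold without replicate 2 of 4F day 8 (-0.33, adjusted p = 0.0055) and without replicate 1 of GFP day 5 (-0.30, adjusted p = 0.024).

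Trib3, Ddit3 and Chac1 are described together and called the stress genes below. Ddit4, a further member that limits growth, is described on its own. It is not among those meant by that name, and 13 of 16 4F arrays had it above both day 0 arrays. Trib3 is a pseudokinase that restrains AKT signalling and feeds back on ATF4. Its signal was 7.46 and 7.20 on day 0. GFP arrays gave 8.47 and 7.82 on day 1, 8.68 and 6.45 on day 3, 8.14 and 8.80 on day 5, 6.10 and 6.44 on day 8, and 6.48 on day 12. 4F arrays gave 7.02 and 7.07 on day 1, from 5.91 to 6.38 (median 6.26) on days 2 to 6, 6.86 and 6.97 on day 8, 6.84 on day 10 and 7.28 on day 12. GFP cultures thus held Trib3 above both day 0 arrays in 5 of 6 arrays up to day 5, whereas 15 of 16 4F arrays lay below both, and on day 8 both 4F arrays lay above both GFP arrays.

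Ddit3 encodes CHOP, a transcription factor of lasting stress that can promote cell death. On day 0 it stood at 7.25 and 7.07. With GFP its signal was 8.19 and 7.76 on day 1, 7.38 and 6.77 on day 3, 7.62 and 8.05 on day 5, 6.81 and 6.66 on day 8, and 7.01 on day 12. With 4 factors it was 7.02 and 6.90 on day 1, from 6.14 to 6.51 (median 6.37) on days 2 to 6, 6.91 and 6.29 on day 8, 6.68 on day 10 and 6.80 on day 12. All 16 4F arrays were below both day 0 arrays. On days 1, 3 and 5 the 4F arrays lay below the GFP arrays of the same day, as they did for Trib3, Chac1 and Atf4. The share of all genes with either pattern was not counted, here or for the like patterns of Trib3, Chac1 and Atf4.

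Chac1 encodes an enzyme that degrades glutathione. It stood at 7.55 and 7.11 on day 0. In GFP it was 7.80 and 7.68 on day 1, 7.76 and 6.91 on day 3, 7.11 and 7.78 on day 5, 6.64 and 6.82 on day 8, and 6.83 on day 12. In 4F it was 6.98 and 7.08 on day 1, from 6.42 to 6.67 (median 6.60) on days 2 to 6, 7.06 and 6.90 on day 8, 6.89 on day 10 and 6.93 on day 12. As with Ddit3, all 16 4F arrays lay below both day 0 arrays, and the 4F arrays of days 1, 3 and 5 lay below those of GFP of the same day.

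Asns, Slc7a5 and Slc3a2 serve supply. Asns is asparagine synthetase, a classical ATF4 target whose promoter stretch is printed above. Its signal was 10.98 and 10.82 on day 0. GFP arrays gave 11.20 and 10.95 on day 1, 11.36 and 10.43 on day 3, 10.87 and 11.37 on day 5, then 9.00 and 9.70 on day 8 and 9.39 on day 12. The 4F arrays gave 10.82 and 10.95 on day 1, from 10.14 to 10.60 (median 10.42) on days 2 to 6, 10.39 and 10.48 on day 8, 10.31 on day 10 and 10.45 on day 12. Asns therefore held a narrow band in 4F from day 2 on, while only 1 of the 6 GFP arrays up to day 5 lay below both day 0 arrays and all 3 later ones did.

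Slc7a5 is LAT1, the transporter of leucine and other large neutral amino acids, and Slc3a2 is CD98, the heavy chain that LAT1 and the cystine transporter need at the cell surface. Slc7a5 was 9.85 and 9.69 on day 0. GFP arrays gave 10.12 and 9.38 on day 1, 10.46 and 8.91 on day 3, 9.21 and 9.92 on day 5, 7.38 and 7.90 on day 8, and 7.16 on day 12. 4F arrays gave 9.87 and 9.55 on day 1, from 8.79 to 9.50 (median 9.22) on days 2 to 6, 9.43 and 8.93 on day 8, 8.48 on day 10 and 8.59 on day 12. Slc7a5 followed the course of Asns, and the GFP arrays of days 8 and 12 were the lowest 3 of the 31, with the day 8 array of 3F, at 7.93, next to them. Slc3a2 moved over a range of 1.06 in all. It was 11.10 and 10.96 on day 0, from 10.61 to 11.37 in the 6 GFP arrays up to day 5, 10.72 in each of the 3 later GFP arrays, and from 10.31 to 10.74 (median 10.55) in 4F on days 2 to 6, after which the 4F arrays gave 10.51 and 11.00 on day 8, 10.90 on day 10 and 11.07 on day 12.

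Slc7a11 is xCT, which imports cystine in exchange for glutamate and so feeds glutathione synthesis. Its signal was 7.35 and 6.47 on day 0. With GFP its signal was 7.14 and 6.58 on day 1, 7.29 and 5.67 on day 3, 6.66 and 7.01 on day 5, 5.95 and 5.53 on day 8, and 5.31 on day 12. With 4 factors it was 6.64 and 6.32 on day 1, from 5.19 to 5.73 (median 5.60) on days 2 to 6, 5.58 and 6.15 on day 8, 5.65 on day 10 and 5.58 on day 12. In 3F it was 6.10, 6.31, 6.78 and 6.95 on days 3, 5, 8 and 12. The 10 4F arrays of days 2 to 6 lay below every 3F array and below both day 0 arrays. How many of all genes lay below every 3F array in this way was not counted. The mean signal of Slc7a11 over all arrays, 6.09, was below that of the median gene, 6.37, so it is the member nearest the dim end of the array.

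Slc7a3 is CAT3, a carrier of arginine, lysine and other cationic amino acids. Its signal was 7.12 and 6.65 on day 0. In GFP it was 7.40 and 6.48 on day 1, 7.90 and 6.17 on day 3, 7.41 and 6.97 on day 5, 5.60 and 5.95 on day 8, and 5.43 on day 12. In 4F it was 7.06 and 6.96 on day 1, 6.63 and 7.09 on day 2, 6.74 and 8.19 on day 3, 6.89 and 8.35 on day 4, 7.24 and 8.49 on day 5, 7.67 and 9.02 on day 6, 8.21 and 9.76 on day 8, then 9.34 on day 10 and 8.78 on day 12. In 3F it was 7.13, 8.14, 8.60 and 9.90 on days 3, 5, 8 and 12. Slc7a3 is the member with the widest range, 4.47, and the only member above both day 0 arrays in every 4F and 3F array from day 8 on and below both in every GFP array from day 8 on. How many of all genes share that pattern was not counted. Within 4F, replicate 2 was above replicate 1 on each of the 6 days from day 2 to day 8 with a pair, by 0.46 on day 2 and by 1.25 to 1.55 on days 3, 4, 5, 6 and 8.

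Ddit4 is REDD1, which restrains mTORC1 and responds to hypoxia and glucocorticoids as well as to ATF4. Its signal was 7.93 and 7.44 on day 0. GFP arrays gave 8.85 and 8.25 on day 1, 8.33 and 7.37 on day 3, 8.52 and 7.93 on day 5, 7.93 and 7.13 on day 8, and 7.83 on day 12. 4F arrays gave 8.06 and 7.90 on day 1, from 7.53 to 9.36 (median 8.70) on days 2 to 6, 10.07 and 8.00 on day 8, 9.09 on day 10 and 9.13 on day 12. In 3F it was 6.90, 7.57, 7.59 and 7.70. Unlike Ddit3 and Chac1, which were below both day 0 arrays in all 16 4F arrays, Ddit4 was high there: 13 of 16 4F arrays lay above both day 0 arrays, as did 5 of the 6 GFP arrays up to day 5 but no later GFP array and no 3F array. The share of all genes with this pattern was not counted. It was also the only member whose replicate 2 array was the lower in all 12 groups with a pair, with differences from -0.13 to -2.07. Replicate 1 was labelled from 120 ng of RNA and all other arrays from 300 ng, and the part of that difference in the result was not tested.

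Measured against the starting cells, 8 of the 10 genes (all but Slc7a3 and Ddit4) had all 10 4F arrays of days 2 to 6 below both day 0 arrays, against 11.2% of all genes. In GFP, 8 of the 10 (all but Atf4 and Ddit4) had all 3 arrays of days 8 and 12 below both day 0 arrays, against 22.4% of all genes. In 3F, 5 of the 10 (Slc7a5, Asns, Ddit3, Trib3 and Chac1) had all 4 arrays below both, against 19% of all genes. These counts describe arrays and carry no test.

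On day 1 the gene for CHOP, Ddit3, was lower with 4 factors than with GFP, and it was the 1 member called. It was 2.02-fold lower (-1.01 ± 0.21, SE, 2 arrays an arm; limma adjusted p = 0.024), against 0.391% of all genes called lower. Chac1 (-0.70 ± 0.23, adjusted p = 0.15) and Trib3 (-1.10 ± 0.47, adjusted p = 0.32) pointed the same way without passing. The median difference of the 10 genes was -0.41 and that of all genes -0.02. The Ddit3 call was lost without replicate 1 of 4F (adjusted p = 0.16), replicate 2 of 4F (0.16) or replicate 1 of GFP (0.35), and when the 4 arrays were fitted alone (0.12). Wherever an array of a pair is left out, the lone array of that group is assumed to vary like the other groups.

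On day 3 no member was called by limma, against 11.9% of all genes called. At the looser threshold of an unadjusted p under 0.05 there were 3 (Chac1, Ddit3 and Trib3), and all genes were not counted at that threshold. Trib3 differed by -1.25 ± 0.47 (adjusted p = 0.11), Chac1 by -0.69 ± 0.23 (0.069) and Ddit3 by -0.58 ± 0.21 (0.092). The replicates split sharply: the Trib3 difference was -2.37 in replicate 1 and -0.13 in replicate 2, and that of Slc7a11 was -1.56 and 0.01. Replicate 2 of GFP day 3 was the lower of its pair in all 10 members, and leaving it out leaves 1 GFP array. The differences were then -2.36 for Trib3, -1.58 for Slc7a11, -1.36 for Slc7a5, -1.12 for Chac1, -0.89 for Asns, -0.88 for Ddit3 and -0.70 for Slc3a2. A filter that kept only genes at or above the median signal called Chac1 (adjusted p = 0.042).

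On day 5 the stress genes and the cystine transporter were low with factors: 5 of the 10 genes were lower in 4F than in GFP, against 10.9% of all genes called lower. Trib3 was lower by 4.92-fold (-2.30 ± 0.47, SE, 2 arrays an arm; limma adjusted p = 0.0023), with -2.10 in replicate 1 and -2.50 in replicate 2. Ddit3 was lower by 2.76-fold (-1.46 ± 0.21, adjusted p = 0.00015) and the cystine transporter Slc7a11 by 2.77-fold (-1.47 ± 0.40, adjusted p = 0.015). Chac1 differed by -0.89 ± 0.23 (adjusted p = 0.012) and Slc3a2 by -0.74 ± 0.22 (0.023). Asns (-0.70 ± 0.27, 0.083), Atf4 (-0.47 ± 0.20, 0.13) and Slc7a5 (-0.42 ± 0.42, 0.58) did not pass, and Slc7a3 and Ddit4 had positive differences, 0.68 and 0.67, that did not pass either.
Trib3 and Ddit3 passed whichever array was left out. Slc7a11 was lost without replicate 1 of 4F (adjusted p = 0.12) or replicate 2 of GFP (0.11), Slc3a2 without replicate 2 of 4F (0.15) or of GFP (0.19), and Chac1 without either 4F array (0.052 and 0.066) or replicate 2 of GFP (0.17). Atf4 passed without replicate 1 of GFP (-0.75, adjusted p = 0.036). Slc3a2 was also lost after quantile normalization (0.14) and Chac1 when the 4 arrays were fitted alone (0.056), and Asns passed with a filter on dim genes (0.047).

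By day 8 the carriers Slc7a3 and Slc7a5 and the synthetase Asns were higher with factors, the 3 of the 10 genes called, against 14.5% of all genes called higher. Slc7a3 was 9.26-fold higher (3.21 ± 0.71, SE, 2 arrays an arm; limma adjusted p = 0.0028), with 2.61 in replicate 1 and 3.81 in replicate 2. Slc7a5 was 2.91-fold higher (1.54 ± 0.42, adjusted p = 0.012) and Asns 2.13-fold (1.09 ± 0.27, adjusted p = 0.0065). Ddit4 was higher by 1.51 ± 0.57 but missed the threshold (adjusted p = 0.064). With the replicate number as a block it passed (adjusted p = 0.0036), as it did with a filter on dim genes (0.032), with a variance prior that follows signal (0.045) and without replicate 2 of 4F day 8 (2.54, 0.0031). Ddit3, Chac1, Slc7a11 and Slc3a2, called lower on day 5, had day 8 differences between -0.14 and 0.25, and that of Trib3 was 0.65 ± 0.47 (adjusted p = 0.37).
Slc7a3 passed whichever array was left out. Slc7a5 was lost without replicate 1 of 4F (adjusted p = 0.097) or of GFP (0.10), Asns without replicate 1 of GFP (0.10), and Asns also when the 4 arrays were fitted alone (0.075). Atf4 passed without replicate 1 of 4F (0.67, adjusted p = 0.019).

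**Figure D2:**
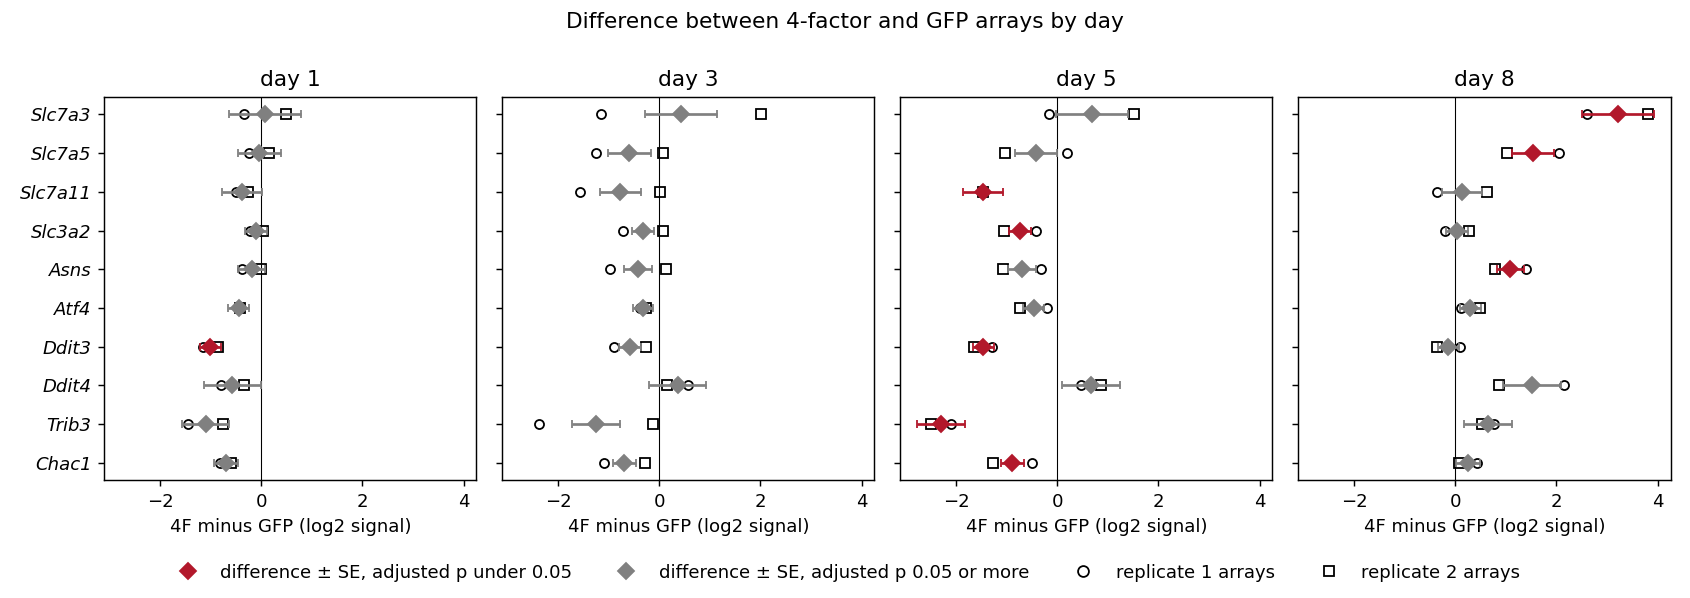
Difference between 4F and GFP in log2 signal (horizontal axis) for each gene on days 1, 3, 5 and 8. Diamonds give the difference with its standard error, red where the adjusted p was under 0.05 and grey otherwise, and open circles and squares give the difference within replicate 1 and replicate 2. On day 5 the called genes lie left of 0 (Trib3 at -2.30), and on day 8 they lie right of it (Slc7a3 at 3.21).

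Comparisons with the uninfected cells place each arm relative to the start. GFP cells on day 8 had less Slc7a5 (-2.13 ± 0.42, a 4.39-fold fall; limma adjusted p = 0.0019) and less Asns (-1.55 ± 0.27, 2.93-fold; adjusted p = 0.00073) than uninfected cells. These were 2 of the 10 genes, against 11.2% of all genes called lower, and all 10 had a negative difference, with a median of -0.83 against 0.02 for all genes. Slc7a11 missed narrowly (-1.17 ± 0.40, adjusted p = 0.051), and passed with the replicate block (0.032), after quantile normalization (-1.27, 0.032), with the prior with trend (0.035) and without replicate 2 of day 0 (-1.61, 0.030). Fitted alone, the 4 arrays also called Slc7a3 (-1.11, 0.041) and Trib3 (-1.06, 0.026).
4F cells on day 8 had no member called against day 0, where 15.9% of all genes were called. At the looser threshold of an unadjusted p under 0.05 there were 4 members, and all genes were not counted at that threshold. Slc7a3 stood 2.10 ± 0.71 higher (limma adjusted p = 0.058) and Ddit4 1.35 ± 0.57 higher (0.14), and both passed with the replicate block (0.039 and 0.012). Slc7a3 passed without replicate 1 of 4F day 8 (2.87, 0.032), as did Ddit3 (-0.87, 0.017), and Ddit4 passed without replicate 2 of 4F day 8 (2.38, 0.0091). Slc7a5 and Asns stood at -0.59 ± 0.42 and -0.46 ± 0.27 from day 0.
On day 1 no member was called against day 0 in either arm. In 4F 0.838% of all genes were called by limma. At an unadjusted p under 0.05, where all genes were not counted, there were 0 of 10 members in 4F. In GFP 0.0903% of all genes were called, and Ddit3 was the only member with an unadjusted p under 0.05 (0.82 ± 0.21 higher, adjusted p = 0.16). These comparisons share the day 0 arrays with those of day 8.

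Averaged over days 1, 3, 5 and 8 (8 arrays an arm), 4 members were lower in 4F than in GFP, against 18.7% of all genes called lower, and 1 was higher, against 18.8% called higher. Lower were Ddit3 (-0.80 ± 0.10, limma adjusted p = 1.8e-05), Trib3 (-1.0 ± 0.23, 0.0030), Chac1 (-0.51 ± 0.12, 0.0024) and Slc7a11 (-0.62 ± 0.20, 0.022), and higher was Slc7a3 (1.10 ± 0.35, 0.023). The average differed between the replicates for Slc7a3, with 0.24 within replicate 1 and 1.96 within replicate 2, and for Slc7a11, with -0.97 and -0.28. For Slc7a3 the replicate 1 difference was negative on days 3 (-1.16) and 5 (-0.17) and that of replicate 2 positive (2.02 and 1.52). Slc7a5 (0.12) and Asns (-0.06) averaged near 0 because their differences had opposite signs on days 5 and 8.
With the replicate block Slc3a2 (-0.28, 0.041) and Ddit4 (0.49, 0.035) passed as well, and Slc3a2 passed with the filter on dim genes (0.035) and the prior with trend (0.050). Slc7a3 was lost (adjusted p 0.051 to 0.062) without replicate 2 of 4F day 3, 4F day 5, 4F day 8, GFP day 1, GFP day 3 or GFP day 5. Slc7a11 was lost (0.050 to 0.058) without replicate 2 of 4F day 1 or GFP day 5, or replicate 1 of 4F day 5, 4F day 8, GFP day 1 or GFP day 8. Slc3a2 passed (0.0043 to 0.046) without replicate 2 of 4F day 8, GFP day 1 or GFP day 3 or replicate 1 of GFP day 5, and Ddit4 without replicate 2 of 4F day 8 (0.75, 0.020).

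The change of the 4F minus GFP difference from day 1 to day 8 was positive for all 10 genes, with a median of 1.12 against 0 for all genes. None passed in the limma fit, against 8.49% of all genes called. At the looser threshold of an unadjusted p under 0.05 there were 8 members, and all genes were not counted at that threshold. The values were 3.14 ± 1.00 for Slc7a3 (adjusted p = 0.070), 1.28 ± 0.38 for Asns (0.053), 0.87 ± 0.29 for Ddit3 (0.087), 0.96 ± 0.33 for Chac1 (0.093), 1.74 ± 0.66 for Trib3 (0.14) and 1.58 ± 0.60 for Slc7a5 (0.13). With the replicate number as a block, which pairs arrays labelled from the same amount of RNA, 4 passed: Slc7a3 (0.043), Asns (0.038), Ddit4 (2.07, 0.012) and Ddit3 (0.050). With that block 14.1% of all genes were called.
Asns also passed without replicate 2 of GFP day 8 (1.63, 0.020), Slc7a3 (3.91, 0.036) and Atf4 (1.12, 0.012) without replicate 1 of 4F day 8, and Ddit3 (1.18, 0.022) and Ddit4 (3.11, 0.015) without replicate 2 of 4F day 8.

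The 2 arrays of a GFP day differed in the members on days 1, 3 and 5, mostly in 1 direction a day. On GFP day 3 all 10 genes were lower in replicate 2 than in replicate 1, with differences from -0.21 (Atf4) to -2.23 (Trib3), and 9 of them by more than 0.5. The same drop of more than 0.5 was seen in 3.54% of all genes, and the median over all genes was -0.03. On GFP day 5 the sign turned: 8 of 10 were higher in replicate 2, 5 of them by more than 0.5, against 1.57% of all genes. On GFP day 1, 9 of 10 were lower in replicate 2, 5 by more than 0.5, against 1.88% of all genes. In 4F the 2 arrays of days 1 to 6 lay within 0.58 of each other for every member but Slc7a3 and Ddit4. On 4F day 8, 5 members differed by more than 0.5, Slc7a3 (1.55), Atf4 (0.75) and Slc7a11 (0.56) upwards in replicate 2 and Ddit4 (-2.07) and Ddit3 (-0.62) downwards, and the median size of the difference was 0.53, as on GFP day 5. Of all genes 7.52% were higher and 5.24% lower there by more than 0.5, the largest shares of any group with a pair.
Other ATF4 targets were lower in replicate 2 of GFP day 3 in 27 of 28 cases, 14 by more than 0.5, and other amino acid transporters in 14 of 18, 7 by more than 0.5. Of 18 endoplasmic reticulum chaperone genes 10 were lower there, 2 by more than 0.5, and of 12 mTORC1 pathway genes 7 were lower, 1 by more than 0.5. Replicate 1 was labelled from 120 ng of RNA and replicate 2 from 300 ng on each day, and the part of that in these differences was not tested.

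**Figure D3:**
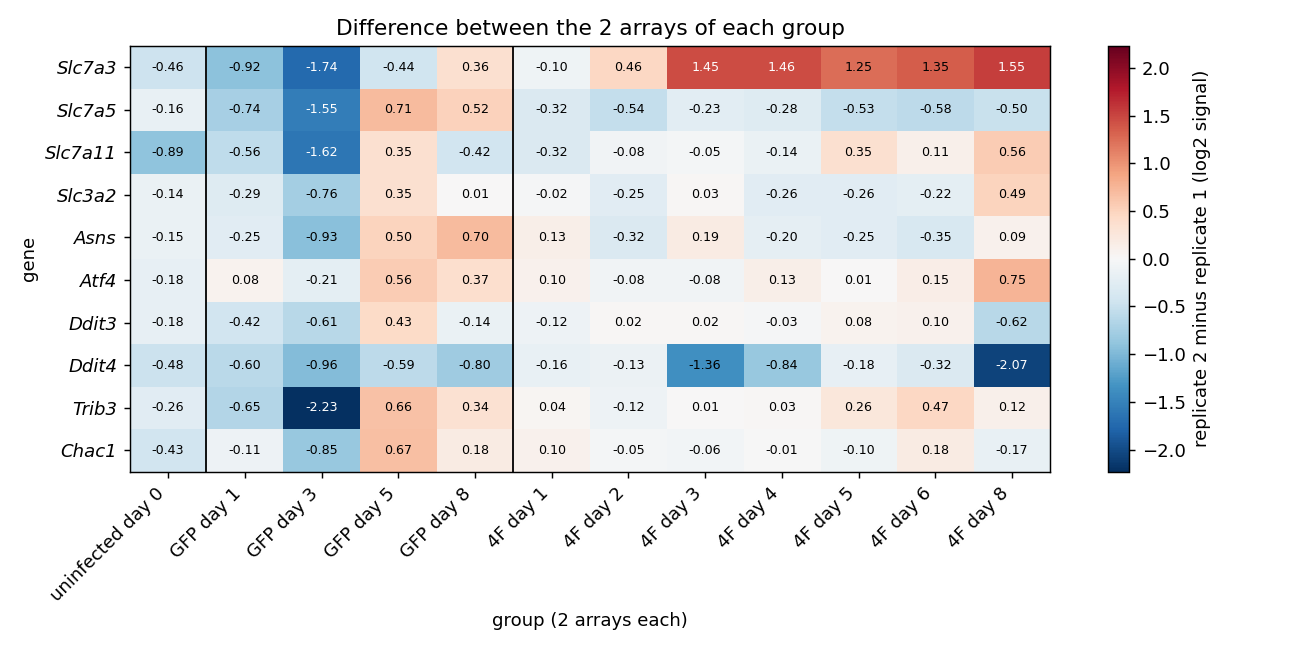
Replicate 2 minus replicate 1 in log2 signal, printed and coloured (blue lower, red higher in replicate 2), for each gene (rows) in the 12 groups with a pair of arrays (columns, uninfected, GFP, then 4F). GFP day 3 is blue in every row, down to -2.23 for Trib3, GFP day 5 is red in 8 of 10 rows, Slc7a3 is red in 4F from day 2, and Ddit4 is blue in every column.

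The 3F arm, as labelled, asks which differences appear without the c-Myc virus, although its Myc signal was the higher. All 3F arrays lack a replicate number and were labelled from 300 ng of RNA. Slc7a3 was higher in 3F than in GFP over days 3, 5, 8 and 12 (1.91 ± 0.63, SE, 4 arrays against 7, days as a term; limma adjusted p = 0.049), the 1 member called higher, against 9.47% of all genes. By day the difference was 0.10, 0.96, 2.83 and 4.47, and against replicate 2 alone it was 0.97, 1.17 and 2.65 on days 3, 5 and 8. With the 300 ng arrays alone it passed (2.32 ± 0.56, adjusted p = 0.033). The call was narrow: it was lost with the replicate set as a block, which rests 3F on its day 12 array (3.65, adjusted p = 0.062), after quantile normalization (0.052), and without the 3F array of day 5 (0.083), 8 (0.13) or 12 (0.20), either GFP array of day 8 (0.091 and 0.084), or replicate 2 of GFP day 3 (0.064) or day 5 (0.062). Ddit3 missed (-0.60 ± 0.22, adjusted p = 0.072) and passed under quantile normalization (-0.64, 0.049), with the filter on dim genes (0.043) and without replicate 2 of GFP day 3 (-0.67, 0.044).
Ddit4 was the 1 member called between 3F and 4F. It was lower in 3F by 2.56-fold (-1.36 ± 0.37, SE, 4 arrays against 7; limma adjusted p = 0.034), against 3.87% of all genes called lower, and by -1.31, -1.33, -1.45 and -1.43 on days 3, 5, 8 and 12. The 4F means of days 3, 5 and 8 include replicate 1, labelled from 120 ng, in which Ddit4 was the higher. Against replicate 2 alone, labelled from 300 ng like 3F, the differences were -0.63, -1.23 and -0.41. With the 300 ng arrays alone, an alternative chosen after the data were seen, the call was lost (-0.93 ± 0.20, adjusted p = 0.070). On day 12 both arrays belong to the set without a replicate number, and there Ddit4 was 7.70 in 3F and 9.13 in 4F. The block left no call (-1.23, adjusted p = 0.51). The call was also lost without the 3F array of day 3 (0.12), 5 (0.13) or 8 (0.091), or replicate 1 of 4F day 3 or day 5 (0.060 for each).
For the other members the 3F minus 4F interval is given in place of a call. It ran from 0.17 to 1.68 for Slc7a11 (0.93 ± 0.35, adjusted p = 0.12), from -1.62 to 0.18 for Slc7a5, from -1.25 to 0.10 for Asns, from -1.15 to 1.55 for Slc7a3, from -0.41 to 0.52 for Ddit3, from -1.21 to 0.97 for Trib3 and from -0.46 to 0.44 for Chac1 (95% confidence intervals, not adjusted for the number of genes). No difference between 3F and 4F was resolved for the 3 stress genes, whose 3F values ran from 6.24 to 6.69 for Trib3, 6.29 to 6.76 for Ddit3 and 6.68 to 6.86 for Chac1.

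Other ATF4 targets lay mostly below GFP on day 5, with 20 of 28 differences negative, and mostly above it on day 8, with 20 of 28 positive. Of the 28 measured, 11 were lower and 1 higher in 4F than in GFP on day 5, where 10.9% of all genes were lower (median difference -0.41 against -0.01 for all genes). On day 8, 11 were higher, against 14.5% of all genes, and 2 lower (median 0.34 against -0.03). The 11 called higher on day 8 were genes of transfer RNA charging (Cars, Gars, Mars1 and Wars), of serine and one-carbon metabolism (Phgdh, Psat1, Psph, Shmt2 and Mthfd2), Cth and Sesn2. Of the 11 lower on day 5, Vldlr (-2.29 ± 0.30, limma adjusted p = 7.9e-05), a lipoprotein receptor, and Atf5 (-1.33 ± 0.28, 0.0026), a transcription factor related to ATF4, had day 8 differences of -0.27 and -0.46 that did not pass. Cth, which makes cysteine from cystathionine, was higher on day 5 (1.75 ± 0.45, 0.011) and on day 8 (3.06 ± 0.45, 0.00011), and the transcription factor gene Cebpb was lower on both (-1.20 ± 0.23, 0.0015, and -1.82 ± 0.23, 2.8e-05). In GFP on day 8, 10 of the 28 were lower than on day 0, against 11.2% of all genes, and 2 were higher (median -0.41 against 0.02). In that comparison 4006 of all 19938 genes were called in either direction. In 3F against 4F, 1 was higher and 1 lower, where 3.87% of all genes were lower and 1921 of 19938 were called in either direction.

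**Figure D4:**
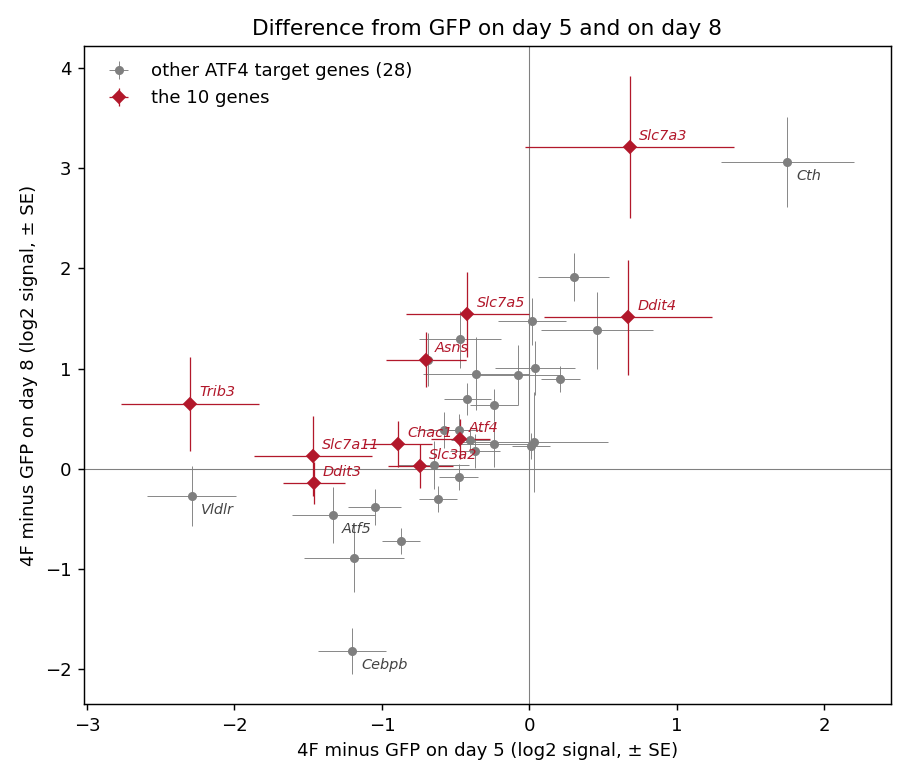
Difference between 4F and GFP in log2 signal on day 5 (horizontal axis) and on day 8 (vertical axis), each with its standard error, for the 10 genes (red diamonds) and 28 other ATF4 target genes (grey circles). Slc7a11, Ddit3, Chac1 and Slc3a2 lie left of 0 on day 5 and between -0.14 and 0.25 on day 8, Trib3 lies at -2.30 and 0.65, Slc7a3 lies at 0.68 and 3.21, and Cebpb lies below 0 on both axes.

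Other amino acid transporters did not move as a block. Of 18, on average over the 4 days, 5 were higher and 6 lower in 4F than in GFP (median 0.03), where 18.8% of all genes were higher and 18.7% lower. Slc7a2, a cationic amino acid carrier like Slc7a3, went the opposite way: it was lower by 1.16 ± 0.14 (difference -1.16, limma adjusted p = 7.3e-06), and by -2.24 ± 0.28 on day 8, where GFP stood at 8.08, 4F at 5.85 and day 0 at 6.05. The glycine transporter gene Slc6a9 (-0.79 ± 0.18, 0.0028) and Slc38a2 (-0.74 ± 0.09, 6.2e-06), a carrier of small neutral amino acids that ATF4 activates, were lower. Slc1a5 (0.72 ± 0.13, 0.00035), the glutamine carrier ASCT2, was higher in 4F, and it was lower in 3F than in 4F (-1.06 ± 0.18, 0.0042).

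Upstream and neighbouring pathways are given for comparison, on the same average and against the same shares of all genes, 18.8% higher and 18.7% lower. Of 13 genes that act on eIF2 or its pathway (its kinases, the eIF2B subunits and other regulators), 7 were higher and 3 lower in 4F on average (median 0.22). No subunit of eIF2 itself was among them. Eif2ak4, the GCN2 kinase that senses uncharged transfer RNA, was higher (0.49 ± 0.06, limma adjusted p = 1.2e-05), as were the eIF2B subunits Eif2b1 (0.59 ± 0.11, 0.00045) and Eif2b5 (0.53 ± 0.07, 1.8e-05), while Impact, an inhibitor of GCN2, was lower (-0.91 ± 0.12, 3.1e-05). The other eIF2 kinases were mixed: Eif2ak1 was higher (0.23 ± 0.07, 0.017), Eif2ak3 lower (-0.30 ± 0.08, 0.0046) and Eif2ak2 not called (-0.43 ± 0.24, 0.18). Of 18 chaperone and unfolded protein response genes 14 were lower and 0 higher (median -0.40), among them Xbp1, a transcription factor of the unfolded protein response (-0.87 ± 0.07, 1.2e-07), Sel1l, of the degradation machinery (-0.76 ± 0.06, 2.4e-07), and the co-chaperones Dnajb9 (-0.77 ± 0.24, 0.021) and Dnajc3 (-0.65 ± 0.10, 5.9e-05). On day 8 11 of these 18 were still lower in 4F (median -0.57), when the median of the 10 members was 0.47. Of all 19938 genes 5497 were called on day 8, of which 2900 were higher in 4F and the rest lower. Fibroblast markers were lower alongside, 10 of 12 on average, with a median of -1.61, and the part of that shift in the chaperone result was not tested.
Of 12 NRF2 and glutathione genes 3 were higher and 2 lower, close to the shares over all genes, with Gsr (0.86 ± 0.07, 1.4e-07) and Gclc (0.62 ± 0.13, 0.0014) higher and Srxn1 (-0.77 ± 0.13, 0.00014) and Hmox1 (-0.75 ± 0.21, 0.0099) lower. Of 13 glucocorticoid and hypoxia targets, the genes that share inputs with Ddit4, 5 were higher and 6 lower. Egln3, an oxygen sensor, was higher (1.69 ± 0.10, 1.1e-08), and Adm (-2.48 ± 0.28, 3.8e-06), Sgk1 (-1.64 ± 0.29, 0.00032) and Errfi1 (-1.35 ± 0.38, 0.011) were lower. Also higher were Pdk1 (0.65 ± 0.07, 4.3e-06), Ankrd37 (0.64 ± 0.11, 0.00021), Fkbp5 (0.49 ± 0.12, 0.0051) and Bnip3 (0.39 ± 0.08, 0.00099). Also lower were Ndrg1 (-0.64 ± 0.16, 0.0051), Per1 (-0.38 ± 0.06, 9.7e-05) and Tsc22d3 (-0.35 ± 0.07, 0.00051). On day 8 alone 5 of the 13 were higher and 3 lower. Of 12 mTORC1 pathway genes 4 were lower and 0 higher: Sesn3 (-0.46 ± 0.12, 0.0076), Deptor (-0.32 ± 0.11, 0.029), Lamtor1 (-0.22 ± 0.06, 0.015) and Tsc1 (-0.19 ± 0.06, 0.013).

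The courses of single members were matched against the 5823 other genes whose group means spanned at least 1 on the log2 scale, by the Pearson correlation of the 19 group means, which share arrays, virus and day, so that these r values only describe likeness. Nearest to Slc7a5 were Mthfd2 (r = 0.969), Gars (0.941) and Lars (0.927), and nearest to Asns were Gars (0.966), Cars (0.946) and Yars (0.941). Mthfd2 is a mitochondrial folate enzyme, and the other 4 encode transfer RNA synthetases. Vldlr was among the nearest 3 of Ddit3 (0.916), Trib3 (0.869), Chac1 (0.888) and Slc3a2 (0.806). Nearest to Slc7a3 were Saxo1 (0.929), Plekha6 (0.928) and Sema4b (0.927), nearest to Ddit4 was Pecr (0.904), nearest to Slc7a11 was Plk2 (0.843), and nearest to Atf4 was Herpud1 (0.831). Over single arrays, which share virus and day, Trib3 and Chac1 correlated at r = 0.92 within the 16 4F arrays and at 0.92 within the 9 GFP arrays, and Slc7a5 and Asns at 0.70 and 0.97.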

How the data were processed

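RNA of 31 mouse embryonic fibroblast samples was labelled by the Affymetrix whole transcript sense method and hybridized to single-colour arrays, 12 of them (replicate 1) from 120 ng of RNA and 19 from 300 ng, per the labels' protocols. The deposited values are log2 signals per probe set, taken as they stand. How the authors corrected background and normalized is not stated in the labels or the table. Of 28853 rows, 21789 carried 1 gene symbol, giving 19938 genes, and for the 999 genes with several rows the row of highest mean was kept. Cross-hybridization between paralogs, such as the Slc7 carriers, was not examined.

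The 10 genes, the gene lists and the tests were chosen with earlier results of these data known. Lists were written from general knowledge, and from each list up to 4 genes with the largest average 4F minus GFP difference among those called are named. Likeness was ranked over group means, with the nearest 3 genes eligible to be named. Genes called on day 8 in the ATF4 list, the other eIF2 kinases and the other called glucocorticoid and hypoxia targets were named after their values were seen.

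Tests used limma 3.58.1 (R 4.3.3), with a mean for each of 19 groups over all 31 arrays, which leaves 12 residual degrees of freedom. 3F, with 1 array a day, was compared in an additive model of arm and day over days 3, 5, 8 and 12 (18 arrays), where its days stand in for replicates. A gene was called where its p, adjusted by Benjamini-Hochberg across all 19938, was under 0.05. Figures were drawn with matplotlib 3.10.9.

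Replicate numbers mark the labelling amount per the labels and were taken to pair arrays. In 66 pairs of groups the replicate differences correlated across genes with r from 0.081 to 0.69 (median 0.32), and 65 exceeded 0.1. Alternatives were the replicate block, the mean of a gene's rows, quantile normalization, a filter at the median signal, a variance prior with trend, the groups fitted alone, leaving out each array and, for 3F, the 300 ng arrays alone, added after the data were seen. Promoter sequences are from RefSeq (GRCm38.p6). Protein sequences were not used here.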

Additional observations from a re-analysis of the deposited data

Results flagged for a closer look

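Among the members, no change of the 4F minus GFP difference between day 1 and day 8 passed the threshold without the replicate block, where 8.49% of all genes were called. With the block 4 members (Slc7a3, Asns, Ddit3 and Ddit4) and 14.1% of all genes passed. Of the genes of the other lists named for the size of their average difference or, in the ATF4 list, for a day 8 call, 13 passed the limma test of that change without the block. Outside that count, Bnip3 (3.53 ± 0.22), Pdk1 (2.21 ± 0.21) and Ankrd37 (1.28 ± 0.31), also named above, passed it too. These genes were named for a called 4F minus GFP difference on day 8 or on the average that includes day 8. The test uses the same day 8 arrays, so their passing it is no independent support for a change. The difference moved up for Cth by 3.05 ± 0.64 (from 0.01 on day 1 to 3.06 on day 8, adjusted p = 0.0077), for Egln3 by 2.93 ± 0.29 (from 0.51 to 3.44, 4.2e-05) and for Shmt2 by 1.60 ± 0.34 (from 0.31 to 1.91, 0.0087). It also moved up for Psat1 by 1.37 ± 0.32 (from 0.10 to 1.47, 0.015), for Mthfd2 by 1.37 ± 0.40 (from -0.08 to 1.29, 0.045), for Gsr by 1.05 ± 0.19 (from 0.35 to 1.41, 0.0032), for Cars by 1.04 ± 0.22 (from -0.33 to 0.70, 0.0086) and for Mars1 by 0.74 ± 0.19 (from 0.16 to 0.90, 0.020). It moved down for Slc7a2 (-2.37 ± 0.39, from 0.13 to -2.24, 0.0015), Impact (-1.54 ± 0.35, from -0.12 to -1.66, 0.013), Cebpb (-1.20 ± 0.33, from -0.63 to -1.82, 0.033), Dnajc3 (-1.02 ± 0.27, from -0.18 to -1.20, 0.030) and Sel1l (-0.66 ± 0.18, from -0.36 to -1.02, 0.033). Groups held 1 or 2 arrays, too few to test for a single array that stands apart.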

How the results depend on the processing

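Of 1468 refitted member differences, 1365 kept their side of the threshold, 45 lost a call and 58 gained a call. Of the values called in either fit 0 changed sign, and the direction of values called in neither fit was not compared. With the replicate block the count of members called went from 0 to 4 for the change from day 1 to day 8, from 0 to 2 for 4F day 8 against day 0, and from 1 to 0 for 3F against GFP and for 3F against 4F. In these comparisons the block called 14.1%, 22.1%, 13.9% and 0.0702% of all genes. It changed no call other than those given beside the results. Leaving out dim genes gave 1 for day 3, 2 for the change from day 1 to day 8, 1 for 4F day 8 against day 0 and 2 for 3F against GFP. The prior with trend gave 2 for the change and 1 for 4F day 8, quantile normalization gave 1 for the change, and groups fitted alone gave 0 for day 1, 2 for the change and 4 for GFP day 8 against day 0.

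Leaving out 1 array gave 0 to 1 members called on day 1, 0 to 7 on day 3, 2 to 6 on day 5, 1 to 4 on day 8, 3 to 7 for the average, 0 to 2 for the change, 0 for either arm on day 1 against day 0, 0 to 2 for 4F and 2 to 3 for GFP on day 8 against day 0, and 0 to 1 for each 3F comparison. The count over all genes moved too: 361 on day 1 became 23 to 308, 2378 on day 3 became 1134 to 2384, 4265 on day 5 became 2427 to 3508, 1693 for the change became 922 to 1578, 3169 for 4F day 8 became 1958 to 2708, 167 for 4F day 1 became 29 to 61, 18 for GFP day 1 became 3 to 42, and 1921 for 3F against 4F became 440 to 2848, 14 with the block and 133 with the 300 ng arrays alone, where 0 members were called. Over all other settings it ran from 0 to 924 on day 1, 760 to 3749 on day 3, 2382 to 6819 on day 8 (5497), 816 to 2820 for the change (1693), 1091 to 4409 for 4F day 8 (3169), 34 to 369 for 4F day 1 (167), 0 to 143 for GFP day 1 (18) and 2450 to 5308 for GFP day 8 (4006), with the main count in brackets. Slc7a11 is dimmer than the median gene and was not tested under the filter.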
